A study of Homo sapiens with 6 samples.

Results

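The genes described here are 32 genes of sterol and fatty acid synthesis, which are controlled by sterol regulatory element-binding proteins (SREBPs), measured in 6 mRNA-seq libraries of PLXND1 knockdown in prostate cancer cell lines. They were chosen by symbol: a row of the deposited table belonged to the set if its Ensembl gene ID carried a listed symbol in GENCODE 29. All 32 were found among the 58735 genes of the table. By role they comprised 3 regulators, 18 enzymes of the sterol pathway, 1 sterol transporter, 4 enzymes of fatty acid synthesis, and 6 enzymes that desaturate, elongate or activate fatty acids.

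The study knocked down PLXND1, which encodes the semaphorin receptor plexin D1, and addressed the part of this receptor in neural lineage plasticity of treatment-resistant prostate cancer. C4-2B MDVR cells, C4-2B cells adapted to enzalutamide, a drug given against prostate cancer, received PLXND1 siRNA 1, PLXND1 siRNA 2 or control siRNA. H660 cells, a model of neuroendocrine prostate cancer, received the same 3 siRNAs. Each combination of line and siRNA was 1 library, so each line had 2 knockdown libraries (1 per siRNA) and 1 control library. The labels state no transfection time, and they do not say whether the libraries came from separate cultures. A p-value for a knockdown effect within a line, or for the difference of these effects, measures only the spread within the pairs of knockdown libraries, and that spread holds the difference between the siRNAs. The p-values for the line difference and for an effect common to both lines come from an additive fit, whose residual spread also holds the controls and the difference of effect between the lines.

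SREBF1 and SREBF2 encode the SREBPs, transcription factors that are made as membrane proteins of the endoplasmic reticulum. When sterols are low, the escort protein SCAP carries them to the Golgi, where proteases free the part that enters the nucleus and binds sterol regulatory elements, usually beside NF-Y and Sp1 sites. When sterols are high, INSIG1 holds SCAP back, and INSIG1 is itself a target of SREBPs. In prostate cancer cells the pathway is known to be driven also by androgens, and FASN is a well-known product of it.

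The libraries held between 17655802 and 24105369 fragments assigned to genes. PLXND1 was at 1.57 and 3.10 FPKM (fragments per kilobase of exon, scaled to the library) with siRNA 1 and siRNA 2 in C4-2B MDVR, against 7.40 FPKM in its control, or 21.2% and 41.8% of it. In H660 PLXND1 was at 7.62 and 7.54 FPKM with the siRNAs, against 9.13 FPKM in the control, or 83.5% and 82.6%, so the H660 libraries compare a small reduction. The share of mitochondrially encoded genes was 7.44% and 6.83% with siRNA 1 and siRNA 2 in C4-2B MDVR, against 3.38% in its control, and 9.47% and 9.64% in H660, against 8.58% in its control. All 9 neuroendocrine markers were at 1 FPKM or more in every H660 library and 1 of 9 was in C4-2B MDVR, where CHGB and INSM1 were listed at 0 in all 3 libraries. Of 9 luminal markers, all 9 were at 1 FPKM or more in C4-2B MDVR, against 2 of 9 in H660, where KLK3, the gene of prostate-specific antigen, was at 0.0459 and 0.0335 FPKM with the siRNAs and 0.104 FPKM in the control. The 2 were the keratin genes KRT8 and KRT18, which were higher in H660, at 236 to 270 FPKM for KRT8 and 155 to 166 FPKM for KRT18, than in C4-2B MDVR, at 74.8 to 134 FPKM and 79.5 to 120 FPKM. The 17 fibroblast, leukocyte and endothelial markers together summed to 12.2 to 14.1 FPKM in the H660 libraries and 4.64 to 7.19 FPKM in C4-2B MDVR.

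Promoter windows of 300 bases, from 250 before to 50 after a transcription start, were taken from RefSeq (GRCh38.p14). They covered 28 of the 32 genes with 38 windows, since some genes have several starts. The letters TCACNCCAC of a sterol regulatory element, searched on both strands, were found in 1 of the 28 genes (3.57%), SREBF2, against 1.52% of 14896 protein-coding genes and 1.13% of all 35116 windows. The E-box CACGTG, which SREBPs also bind, was in 4 of 28 genes (ELOVL5, INSIG1, LSS and SC5D, 14.3%), against 11.02% of the protein-coding genes and 7.26% of all windows. The NF-Y letters CCAAT were in 23 of 28 genes (82.1%), against 42.3% of the protein-coding genes and 34.6% of all windows, and the Sp1 letters GGGCGG in 26 of 28 (92.9%), against 65.4% and 45.0%. These are matches of letters in short windows, and genes with more windows have more chances of a match.

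The SREBF2 stretch, chr22:41832917-41833036 on the plus strand, is shown because it holds the only sterol regulatory element match among these genes. Its capitals mark that match, whose first base lies 133 bases before the start. Also shown are the 250 bases before the start of INSIG1 (chr7:155297628-155297877, plus strand), SCD (chr10:100346983-100347232, plus strand) and FADS1 (chr11:61817004-61817253, minus strand). Only these 3 genes of the set were at least 1.5-fold below the control with both siRNAs in C4-2B MDVR. In these 3 stretches capitals mark the E-box, NF-Y and Sp1 letters named above on either strand; where a match is on the other strand, the reverse complement of its letters is what is printed. In the stretches shown, INSIG1 holds 1 CACGTG, 1 CCAAT and 5 GGGCGG matches, of which a pair overlaps, SCD holds 2 CCAAT and 2 GGGCGG matches, and FADS1 holds 2 GGGCGG matches.
SREBF2: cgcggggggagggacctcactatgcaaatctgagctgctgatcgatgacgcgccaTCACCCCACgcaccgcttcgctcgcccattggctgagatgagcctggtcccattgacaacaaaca
INSIG1: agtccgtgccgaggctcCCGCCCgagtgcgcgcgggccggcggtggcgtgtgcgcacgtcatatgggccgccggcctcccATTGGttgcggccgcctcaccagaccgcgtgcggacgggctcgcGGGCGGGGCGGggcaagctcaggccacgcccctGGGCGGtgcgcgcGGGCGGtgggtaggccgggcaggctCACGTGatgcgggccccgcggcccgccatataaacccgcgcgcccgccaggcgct
SCD: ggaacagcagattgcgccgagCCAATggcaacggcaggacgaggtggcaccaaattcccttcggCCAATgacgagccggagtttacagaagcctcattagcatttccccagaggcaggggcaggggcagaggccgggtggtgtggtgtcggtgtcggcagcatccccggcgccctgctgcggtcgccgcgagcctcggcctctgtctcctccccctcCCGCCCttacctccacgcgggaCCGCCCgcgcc
FADS1: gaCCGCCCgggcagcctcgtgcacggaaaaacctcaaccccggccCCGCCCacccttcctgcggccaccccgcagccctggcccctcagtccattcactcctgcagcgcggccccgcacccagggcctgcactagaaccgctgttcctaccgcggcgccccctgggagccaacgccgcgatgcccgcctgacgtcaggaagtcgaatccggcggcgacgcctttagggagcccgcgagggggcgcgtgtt

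The genes were expressed at very different levels in the lines. Their summed level was 428, 425 and 430 FPKM in H660 with siRNA 1, siRNA 2 and control siRNA, against 1954, 1514 and 2458 FPKM in the same order in C4-2B MDVR. FASN, which encodes fatty acid synthase, made up 5.09%, 4.65% and 6.21% of that sum in H660, against 24.7%, 22.2% and 27.3% in C4-2B MDVR. By FPKM, FASN ranked 1923, 2211 and 1508 of 19951 protein-coding genes in the H660 libraries, against 42, 77 and 29 in C4-2B MDVR. In bulk RNA, fewer cells of a type and less RNA per cell cannot be told apart.

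**Figure D1:**
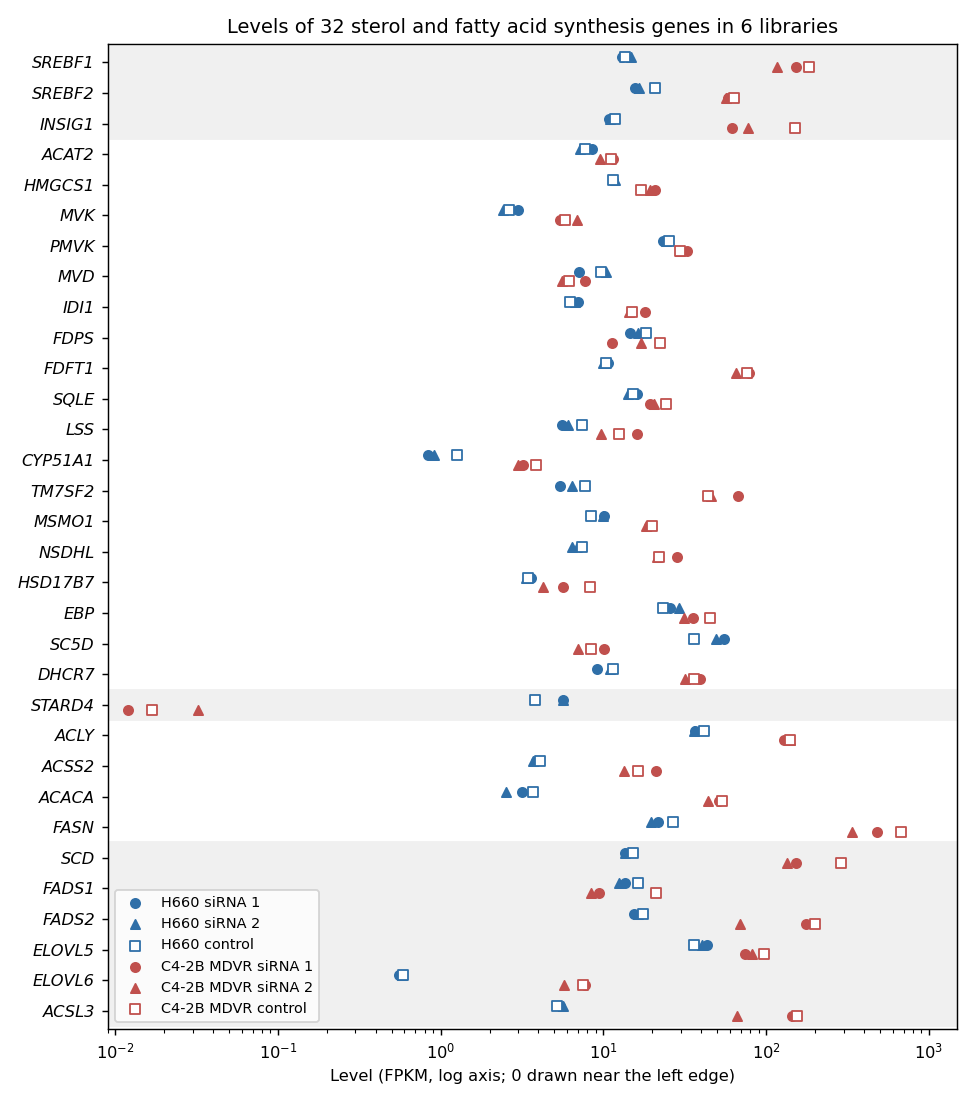
Level of each of the 32 genes in FPKM on a log axis, with 1 point per library; circles are siRNA 1, triangles siRNA 2, open squares control siRNA, blue H660 and red C4-2B MDVR, and shading separates the roles. Most genes lie to the right in C4-2B MDVR, SC5D and STARD4 lie to the right in H660, and the open red squares of INSIG1, SCD and FADS1 stand apart from the filled red points.

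**Figure D2:**
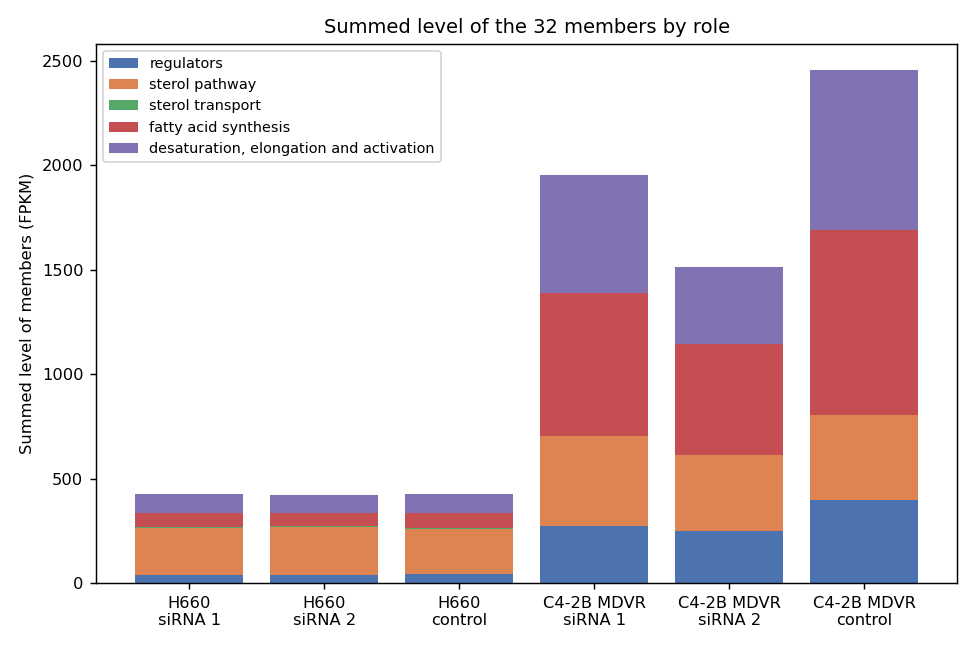
Summed FPKM of the 32 genes in each library, stacked by role. The H660 bars reach 428, 425 and 430 FPKM, and the C4-2B MDVR bars 1954, 1514 and 2458 FPKM, with both knockdown bars below the control.

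With PLXND1 knockdown in C4-2B MDVR, INSIG1, the stearoyl-CoA desaturase gene SCD and the fatty acid desaturase gene FADS1 were at 40.0% to 52.7% of the control with either siRNA. FASN was at 72.1% and 50.1%. The enzymes of the sterol pathway showed no direction common to both siRNAs. None of the 32 genes passed limma's test on log2(FPKM + 1) at an adjusted p under 0.05 (lowest adjusted p = 0.426, for FADS1), and neither did any of the 15638 genes tested (0% of them, 921 with an unadjusted p under 0.05). By voom on the recovered fragments 11 genes were called, none of them in the set. At an unadjusted p under 0.05, 5 of the 32 genes were lower (15.6%) and none was higher, against 2.15% of all genes lower and 3.74% higher. The 5 were FADS1, SCD, INSIG1, HSD17B7 and FASN. The median difference over the 32 genes was -0.12, with 23 below 0, against 0.02 over all genes tested. With siRNA 1 alone the median was -0.06 with 19 genes below 0, and with siRNA 2 alone -0.24 with 27 below 0, against 45.2% and 44.3% of all genes below 0.

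Because each siRNA had a single library, a rule of size was read beside the test. At least 1.5-fold below the control with both siRNAs in C4-2B MDVR were 3 of 31 genes (9.68%), against 2.35% of the 12888 genes the rule could be applied to. These were INSIG1, SCD and FADS1. None of the 31 was at least 1.5-fold above the control with both siRNAs, against 3.76%. STARD4 was left out because its mean in C4-2B MDVR was under 1 FPKM. With siRNA 1 alone 4 genes were that far below the control (12.9%, against 9.17% of all), and with siRNA 2 alone 8 (25.8%, against 8.19%). That far above it were TM7SF2 with siRNA 1 (3.23%, against 11.7%) and none with siRNA 2 (0%, against 9.1%). Simply below the control with both siRNAs were 16 of 31 genes (51.6%), against 25.6% of all genes, and 2 genes, HMGCS1 and TM7SF2, were above it with both (6.45%, against 33.8%). TM7SF2 did not stay there under other scalings: with siRNA 2 it was at 95.02% of the control after leaving out mitochondrial genes and short RNAs and at 97.0% by quantile normalization.

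**Figure D3:**
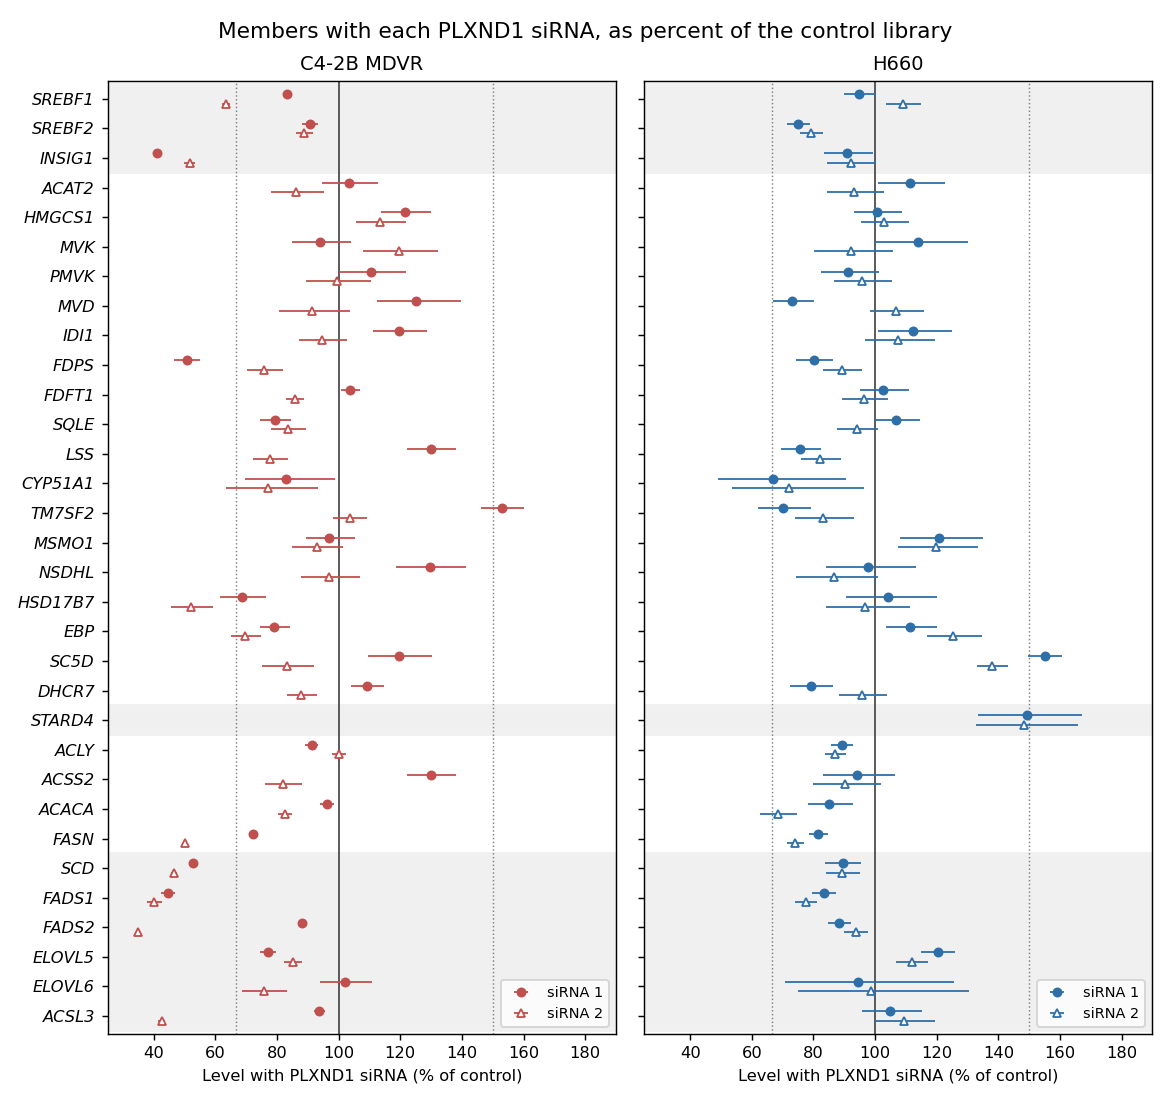
Level of each gene with siRNA 1 (filled circles) and siRNA 2 (open triangles) as a percent of the control library of its line, in C4-2B MDVR (left) and H660 (right); bars are 95% intervals of counting error only, the solid line is the control, and the dotted lines are 1.5-fold below and above it. INSIG1, SCD and FADS1 lie below the lower dotted line with both siRNAs in C4-2B MDVR, no gene does in H660, and STARD4 has no point in C4-2B MDVR, where it had at most 3 fragments.

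Among the regulators, INSIG1, whose product retains SREBPs in the endoplasmic reticulum, was at 61.6 and 77.5 FPKM with siRNA 1 and siRNA 2 in C4-2B MDVR, against 150 FPKM in the control. Both knockdown libraries lay far below the control, at 41.0% (95% counting interval 39.6 to 42.5) and 51.6% (49.9 to 53.4) of it. The limma difference was -1.11 ± 0.19 (log2, SE), with an adjusted p of 0.568. SREBF1, which encodes the SREBP that mainly drives fatty acid synthesis, was at 154 and 117 FPKM with the siRNAs, against 185 FPKM in the control (-0.46 ± 0.23, limma adjusted p = 0.898). SREBF2, whose product mainly drives sterol synthesis, was at 58.1 and 56.9 FPKM with the siRNAs, against 64.0 FPKM in the control. The 2 factors were thus nearer to their control than INSIG1 was. In H660, INSIG1 was at 10.8 and 10.9 FPKM with the siRNAs, against 11.9 FPKM in the control, and SREBF1 at 13.0 and 14.9 FPKM, against 13.7 FPKM. SREBF2 was at 15.6 and 16.5 FPKM in the H660 knockdown libraries, against 20.8 FPKM in the control, which is 75.02% and 79.3% of it (-0.35 ± 0.14, limma adjusted p = 1).

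The desaturases, elongases and the acyl-CoA synthetase had all 6 differences below 0 in C4-2B MDVR and a median of -0.75. That median rested mostly on siRNA 2: with siRNA 2 alone it was -1.16, against -0.65 for the regulators, and with siRNA 1 alone it was -0.28, close to the -0.26 of the regulators, with ELOVL6 above the control. SCD, which makes monounsaturated fatty acids, was at 153 and 135 FPKM with siRNA 1 and siRNA 2, against 290 FPKM in the control. The 2 siRNAs left 52.7% (51.7 to 53.7) and 46.6% (45.7 to 47.6) of the control level (-1.01 ± 0.16, limma adjusted p = 0.495). FADS1, a desaturase of polyunsaturated fatty acids, was at 9.37 and 8.43 FPKM with the siRNAs, against 21.1 FPKM in the control. That is 44.5% (42.2 to 47.0) and 40.0% (37.7 to 42.5) of the control, and it was the lowest adjusted p of the set (-1.16 ± 0.16, limma adjusted p = 0.426). Its neighbour FADS2, which encodes the desaturase of an earlier step, behaved unlike it between the siRNAs, with 175 and 69.5 FPKM against 199 FPKM in the control. The same split was seen for ACSL3, which activates long-chain fatty acids, with 145 and 66.1 FPKM against 155 FPKM. ELOVL5, an elongase of polyunsaturated fatty acids, was at 74.4 and 82.2 FPKM, against 96.6 FPKM. For ELOVL6, which elongates saturated and monounsaturated fatty acids, the values were 7.70 and 5.72 FPKM with the siRNAs, against 7.56 FPKM.

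In H660 the same group had a median of -0.07, with 4 of 6 below 0. SCD was at 13.7 and 13.7 FPKM with the siRNAs, against 15.3 FPKM in the control, and FADS1 at 13.6 and 12.6 FPKM, against 16.2 FPKM. FADS2 was at 15.4 and 16.3 FPKM in the H660 knockdown libraries, against 17.4 FPKM. ELOVL5 lay above its control, with 43.5 and 40.5 FPKM against 36.2 FPKM, and ACSL3 slightly above it, with 5.43 and 5.65 FPKM against 5.17 FPKM. ELOVL6 was barely present, at 0.554 and 0.580 FPKM against 0.587 FPKM, or 95 and 109 fragments against 106.

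Of the 4 enzymes that supply and join acetyl units, FASN had the lowest level relative to the control in C4-2B MDVR. It was at 483 and 336 FPKM with siRNA 1 and siRNA 2, against 671 FPKM in the control, and siRNA 2 left less (50.1%, 49.6 to 50.6) than siRNA 1 (72.1%, 71.5 to 72.7). The limma difference was -0.73 ± 0.27, with an adjusted p of 0.847. ACACA, the acetyl-CoA carboxylase that makes malonyl-CoA, was at 51.6 and 44.3 FPKM, against 53.6 FPKM in the control. ACLY, which splits citrate into acetyl-CoA, was at 129 and 141 FPKM, against 141 FPKM. ACSS2, which makes acetyl-CoA from acetate, lay above its control with siRNA 1 and below it with siRNA 2, at 21.2 and 13.4 FPKM, against 16.3 FPKM. In H660 all 4 differences were below 0, with a median of -0.24. FASN was at 21.8 and 19.8 FPKM with the siRNAs, against 26.7 FPKM in the H660 control, and ACACA at 3.16 and 2.54 FPKM, against 3.72 FPKM. ACLY was at 36.8 and 36.0 FPKM, against 41.3 FPKM, and ACSS2 at 3.85 and 3.69 FPKM, against 4.09 FPKM.

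The 18 sterol pathway genes centred on their control in C4-2B MDVR, with 8 above and 10 below 0 and a median of -0.01. With siRNA 1 alone 11 of them were above it (median 0.09), and with siRNA 2 alone 15 were below it (median -0.19). The first steps make mevalonate from acetyl units and turn it into isoprenoids. HMGCS1, which makes the precursor of mevalonate, was at 20.7 and 19.3 FPKM with the siRNAs, against 17.0 FPKM in the control, and was above the control with both siRNAs. ACAT2, the thiolase before it, was at 11.5 and 9.60 FPKM, against 11.1 FPKM. The kinases MVK and PMVK were at 5.46 and 6.94 FPKM and at 32.9 and 29.6 FPKM with the siRNAs, against 5.81 and 29.8 FPKM in the control. MVD, the decarboxylase, was at 7.68 and 5.61 FPKM, against 6.14 FPKM, and IDI1, the isomerase, at 18.0 and 14.3 FPKM, against 15.1 FPKM. FDPS, which makes farnesyl diphosphate, was the exception among these early genes, at 11.4 and 17.0 FPKM, against 22.4 FPKM in the control, or 50.6% with siRNA 1 and 75.9% with siRNA 2 (-0.65 ± 0.27, limma adjusted p = 0.865).

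From squalene on, most genes stayed within 1.5-fold of the C4-2B MDVR control. FDFT1, the squalene synthase gene, was at 78.9 and 65.2 FPKM with the siRNAs, against 76.0 FPKM, and SQLE, the squalene epoxidase gene, at 19.3 and 20.4 FPKM, against 24.4 FPKM. LSS, the lanosterol synthase gene, was at 16.2 and 9.71 FPKM, against 12.5 FPKM, and CYP51A1, the lanosterol demethylase gene, at 3.21 and 2.99 FPKM, against 3.88 FPKM. The gene of a sterol reductase, TM7SF2, was 1.5-fold above the control with siRNA 1 alone, at 67.6 and 45.8 FPKM with the siRNAs, against 44.2 FPKM. HSD17B7, which encodes a ketosterol reductase, was below the control with both siRNAs, at 5.66 and 4.29 FPKM, against 8.26 FPKM, or 68.6% and 52.0% of it (-0.64 ± 0.20, limma adjusted p = 0.818). EBP, a sterol isomerase gene, was at 35.8 and 31.5 FPKM, against 45.2 FPKM. The rest were MSMO1 and NSDHL, which act in the removal of methyl groups, with 19.2 and 18.4 FPKM against 19.8 FPKM for MSMO1 and 28.5 and 21.3 FPKM against 22.0 FPKM for NSDHL. Of the late enzymes, the desaturase gene SC5D was at 10.1 and 7.01 FPKM, against 8.44 FPKM, and the reductase gene DHCR7 at 39.3 and 31.7 FPKM, against 36.0 FPKM.

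In H660 the sterol pathway also had no common direction, with 9 genes above and 9 below 0 and a median of -0.00. SC5D, which desaturates lathosterol, stood highest against its control, at 55.6 and 49.4 FPKM with siRNA 1 and siRNA 2, against 35.8 FPKM. Those levels are 155% (149 to 161) and 138% (133 to 143) of the control (0.54 ± 0.25, limma adjusted p = 1). STARD4, whose product carries sterols between membranes, was at 5.65 and 5.62 FPKM, against 3.79 FPKM in the H660 control, or 149% (133 to 167) and 148% (133 to 166). It was the only gene of the set with an unadjusted p under 0.05 in H660 (0.47 ± 0.15, limma adjusted p = 1), which is 3.12% of the set, against 4.14% of all genes. MSMO1 was at 10.1 and 9.998 FPKM, against 8.35 FPKM, and EBP at 25.8 and 29.02 FPKM, against 23.1 FPKM, both above the control with either siRNA. Below the control with either siRNA were TM7SF2, at 5.39 and 6.39 FPKM against 7.69 FPKM, and LSS, at 5.61 and 6.10 FPKM against 7.42 FPKM. CYP51A1 was at 0.843 and 0.910 FPKM, against 1.26 FPKM, but rested on 71 and 84 fragments, against 112. The other 12 sterol pathway genes of H660 lay between 73.2% and 114% of their control. Among them HMGCS1 and IDI1 were also above it with either siRNA, and PMVK, FDPS, NSDHL and DHCR7 also below it.

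Over all 32 genes in H660 the median was -0.09, with 19 below 0, against -0.01 over all genes tested. Neither limma nor voom called a gene of the set in H660 or any other gene tested (0%), and by limma 647 of 15638 had an unadjusted p under 0.05. Of 31 genes, without ELOVL6 with a mean under 1 FPKM, none was at least 1.5-fold from the H660 control with both siRNAs in either direction, against 1.76% of 13946 genes below and 3.59% above. With siRNA 1 alone SC5D was (3.23%, against 6.93% of all genes above the control). Below the control with both siRNAs were 16 of 31 genes (51.6%), against 39.2% of all genes, and above it with both were 8 (25.8%, against 33.9%).

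The difference of the knockdown effect between the lines, C4-2B MDVR minus H660, was tested directly in the same fit. No gene passed limma's test at an adjusted p under 0.05 (0% of 15638 genes, 701 with an unadjusted p under 0.05), and none was called by voom. At an unadjusted p under 0.05, 3 genes of the set had a lower difference (9.38%, against 2.11% of all genes). These were INSIG1 (-0.99 ± 0.28), SCD (-0.86 ± 0.22) and FADS1 (-0.86 ± 0.22), each with an adjusted p of 0.985. The direction of the effect was the same in both lines for 16 of 32 genes (50%), against 50.4% of all genes tested. Both effects were below 0 for 13 of 32 (40.6%), against 24.1% of all genes. A fit of 1 effect common to both lines called no gene either by limma or voom (0%, 654 genes by limma with an unadjusted p under 0.05), and its median over the set was -0.10, against 0.01 over all genes. At an unadjusted p under 0.05 that fit had 4 genes of the set lower (12.5%, against 1.62% of all genes), namely FADS1, INSIG1, SCD and FASN.

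The summed level of the set in C4-2B MDVR was 79.5% of the control with siRNA 1 and 61.6% with siRNA 2. By role, these shares were 68.5% and 63.1% for the regulators, 106% and 88.4% for the sterol pathway, 77.7% and 60.6% for fatty acid synthesis, and 73.4% and 47.7% for desaturation, elongation and activation. With siRNA 1, FASN accounted for 37.2% of the difference of the sum from the control, SCD for 27.2% and INSIG1 for 17.6%. With siRNA 2, FASN accounted for 35.5%, SCD for 16.4%, FADS2 for 13.7%, ACSL3 for 9.43% and INSIG1 for 7.70%. In H660 the sum was 99.5% and 98.9% of the control.

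The mitochondrial share moved with the C4-2B MDVR knockdown, as given above. When mitochondrial genes and short RNAs were left out and each library was rescaled to the same sum, INSIG1 was at 39.1% and 47.3% of the control with siRNA 1 and siRNA 2. On that scale SCD was at 50.2% and 42.8%, FADS1 at 42.4% and 36.7%, and FASN at 68.7% and 45.9%. Rescaling multiplies all genes of a library by the same factor. In C4-2B MDVR it therefore lowered the percent of control of every gene alike with a given siRNA. The lower values are not particular to these genes, and the part of the mitochondrial share was not tested.

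The 2 siRNAs differed from each other in C4-2B MDVR for part of the set. At least 1.5-fold lower with siRNA 2 than with siRNA 1 were 4 of 31 genes, FADS2, ACSL3, LSS and ACSS2 (12.9%), and none was that far higher. The background was 13.2% of 12888 genes lower and 12.6% higher, so the share of lower genes was near that of all genes. FADS2 with siRNA 2 was at 0.396 times its level with siRNA 1 (95% counting interval 0.388 to 0.404), and ACSL3 at 0.455 times (0.443 to 0.467). For LSS the ratio was 0.598 (0.557 to 0.643) and for ACSS2 0.631 (0.588 to 0.677). The 9 luminal markers summed to 1681 FPKM with siRNA 1 and 835 FPKM with siRNA 2, against 1227 FPKM in the control, so they were also lowest with siRNA 2. PLXND1 itself was lower with siRNA 1. The part of either in the difference between the siRNAs was not tested. In H660 no gene of the set differed by 1.5-fold between the siRNAs, against 3.66% of 13946 genes lower and 5.22% higher with siRNA 2.

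Between the lines the set differed far more than with knockdown. H660 had less RNA of the regulators, of fatty acid synthesis and of most desaturases and elongases than C4-2B MDVR, while SC5D and STARD4 stood out in the other direction. By limma, at an adjusted p under 0.05 and at least 2-fold, 18 of 32 genes were lower in H660 (56.2%), against 17.9% of all genes, and 2 of 32 were higher (6.25%), against 20.1%. Over all genes 3143 were higher and 2803 lower. Leaving out mitochondrial genes and short RNAs raised the median of all genes by 0.26 and changed that split to 3854 higher and 2105 lower, with 15 genes of the set lower and 2 higher. Relative to the median of all genes, the median of the set was -1.13 as deposited and -1.16 on that scale. At any size, 27 of the 32 genes were lower in H660 (84.4%, against 34.6% of all genes) and 2 higher (6.25%, against 35.2%).

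On the log2(FPKM + 1) scale FASN had the largest difference, at 22.7 ± 3.55 FPKM in H660 and 497 ± 168 FPKM in C4-2B MDVR (mean ± SD over the 3 libraries of each line), a 21.8-fold higher mean in C4-2B MDVR. Its limma difference, H660 minus C4-2B MDVR, was -4.34 ± 0.18 (adjusted p = 9.27e-06). ACSL3 averaged 5.42 ± 0.239 FPKM in H660 and 122 ± 48.8 FPKM in C4-2B MDVR (-4.17 ± 0.31, limma adjusted p = 8.44e-05), and by the ratio of the means it was 22.5-fold higher in C4-2B MDVR, slightly more than FASN. ACACA averaged 3.14 ± 0.588 and 49.8 ± 4.91 FPKM in H660 and C4-2B MDVR (-3.62 ± 0.12), and SCD 14.2 ± 0.931 and 192 ± 84.7 FPKM (-3.59 ± 0.19). These genes were picked for their large differences, and none had overlapping values in the lines. The share of all genes without overlap is not given here. By limma, 72.5% of all genes tested had an unadjusted p under 0.05 between the lines. The regulator SREBF1 averaged 13.8 ± 0.978 FPKM in H660 and 152 ± 33.8 FPKM in C4-2B MDVR (-3.34 ± 0.17), a larger difference than that of SREBF2, with 17.6 ± 2.78 and 59.7 ± 3.80 FPKM (-1.71 ± 0.10). INSIG1 averaged 11.2 ± 0.584 FPKM in H660 and 96.5 ± 47.2 FPKM in C4-2B MDVR (-2.89 ± 0.23).

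By role, all 3 regulators, all 4 genes of fatty acid synthesis and 5 of 6 genes of desaturation, elongation and activation were called lower in H660. In the last group FADS2 averaged 16.4 ± 1.03 FPKM in H660 and 148 ± 69.0 FPKM in C4-2B MDVR (-2.96 ± 0.35), and the gene not called was FADS1. FADS1 averaged 14.1 ± 1.89 FPKM in H660 and 12.9 ± 7.03 FPKM in C4-2B MDVR (0.22 ± 0.19, limma adjusted p = 0.345): its H660 libraries lay between the C4-2B MDVR knockdown libraries and the C4-2B MDVR control. Of the 18 sterol pathway genes 6 were called lower (33.3%, against 17.9% of all genes), namely TM7SF2 (-2.82), FDFT1 (-2.71), DHCR7 (-1.67), NSDHL (-1.63), IDI1 (-1.14) and CYP51A1 (-1.12). At any size, 15 of the 18 were lower at an adjusted p under 0.05, among them MVK, with a 2.26-fold higher mean in C4-2B MDVR, MSMO1 (2.02-fold) and LSS (2.01-fold), which did not reach 2-fold on the log2(FPKM + 1) scale. Besides SC5D, FDPS and MVD were the genes not lower at that threshold. FDPS averaged 16.4 ± 1.83 FPKM in H660 and 16.9 ± 5.54 FPKM in C4-2B MDVR (0.00 ± 0.18, limma adjusted p = 0.992), and MVD 9.08 ± 1.73 and 6.48 ± 1.08 FPKM (0.42 ± 0.18, limma adjusted p = 0.0773).

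SC5D averaged 46.9 ± 10.1 FPKM in H660 and 8.51 ± 1.54 FPKM in C4-2B MDVR, 5.51-fold higher (2.32 ± 0.18, limma adjusted p = 9.79e-05). It ranked 563, 693 and 1042 among the protein-coding genes of the H660 libraries, against 4723, 5991 and 5192 in C4-2B MDVR. STARD4 had 755, 823 and 533 fragments in H660 with siRNA 1, siRNA 2 and control siRNA, against 0, 3 and 2 fragments in C4-2B MDVR. The lowest H660 level was at least 117-fold higher than 3 fragments would give in a C4-2B MDVR library (2.55 ± 0.14, limma adjusted p = 2.62e-05). STARD4 passed the filter on low values through H660 alone and ELOVL6 through C4-2B MDVR alone, so a difference between the lines was built into their passing.

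**Figure D4:**
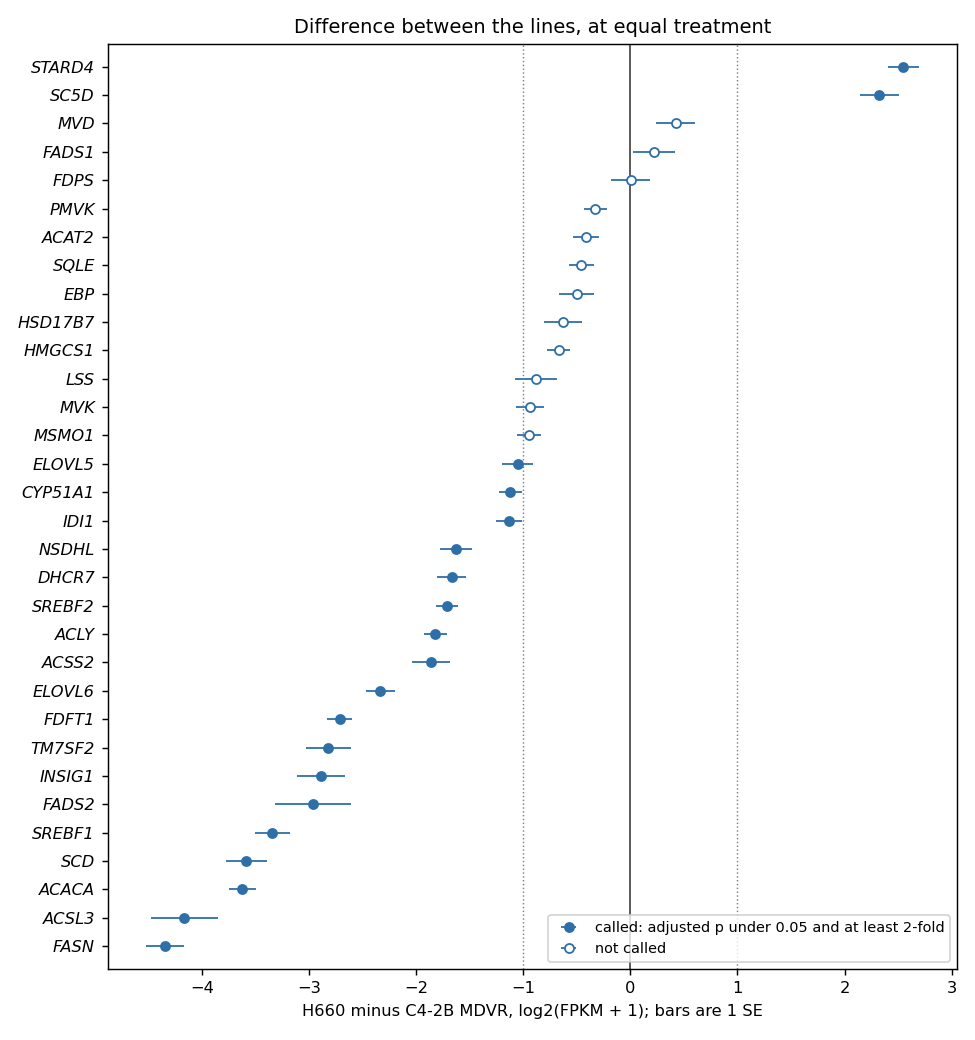
Difference of each gene between the lines at equal treatment, H660 minus C4-2B MDVR, in log2(FPKM + 1), with bars of 1 SE from limma; filled points passed an adjusted p under 0.05 and 2-fold. FASN (-4.34) lies at the bottom and STARD4 (2.55) and SC5D (2.32) at the top, and the genes from MVD to MSMO1 lie within 2-fold on this scale.

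Genes around the pathway, in lists chosen with earlier results of these data known, did not pass limma's test with knockdown in either line. Their counts above 0 are read against all genes tested, of which 55.9% were above 0 in C4-2B MDVR and 46.3% in H660. Of 11 measured genes of SREBP control, 7 were above 0 in C4-2B MDVR (63.6%, median 0.08), and 5 were above 0 in H660 (median -0.02). INSIG2, the second INSIG gene, was at 5.98 and 7.19 FPKM with the siRNAs, against 4.79 FPKM in the C4-2B MDVR control, and at 3.40 and 2.88 FPKM, against 1.80 FPKM in the H660 control. It thus lay on the other side of its control from INSIG1 (limma adjusted p = 0.898 in C4-2B MDVR and 1 in H660). MYLIP, a ubiquitin ligase that degrades lipoprotein receptors, was at 10.6 and 13.1 FPKM in C4-2B MDVR with the siRNAs, against 7.11 FPKM. SCAP, the escort of SREBPs, was at 38.5 and 36.7 FPKM, against 35.1 FPKM.

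Among 13 genes of cholesterol uptake, storage and traffic, 10 were above 0 in C4-2B MDVR (76.9%) with a median of 0.06, and 6 were above 0 in H660 with a median of -0.06. NPC1, which exports cholesterol from lysosomes, was at 11.9 and 11.5 FPKM with the siRNAs in C4-2B MDVR, against 6.36 FPKM (0.78 ± 0.14, limma adjusted p = 0.572), and at 4.21 and 4.20 FPKM in H660, against 4.49 FPKM. Another lysosomal gene, NPC2, lay below its control in C4-2B MDVR, at 21.4 and 17.5 FPKM, against 22.4 FPKM (-0.20), and TMEM97, a sterol-binding membrane protein gene, likewise, at 25.5 and 32.4 FPKM, against 36.4 FPKM (-0.33). Of 6 genes of LXR receptors and sterol export, 5 were above 0 in C4-2B MDVR (83.3%, median 0.18) and 2 in H660 (median -0.04). ABCG1, a sterol exporter, was at 5.18 and 5.87 FPKM with the siRNAs in C4-2B MDVR, against 3.44 FPKM. CYP7B1, an oxysterol hydroxylase gene with the largest difference of that list, lay on the other side, at 1.28 and 0.540 FPKM with the siRNAs, against 1.92 FPKM (-0.64).

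In the list of fatty acid supply, elongation and activation 14 of 22 genes were above 0 in C4-2B MDVR (63.6%, median 0.06) and 13 in H660 (median 0.07). In H660, ACSL4 was at 9.54 and 8.98 FPKM with the siRNAs, against 5.61 FPKM, and the elongase gene ELOVL7 at 16.8 and 16.8 FPKM, against 10.6 FPKM. For glycerolipid synthesis and droplets the counts above 0 were 7 of 12 in C4-2B MDVR (58.3%, median 0.05) and 3 of 12 in H660 (median -0.14). DGAT2, which makes triglycerides, was at 12.9 and 13.8 FPKM with the siRNAs in C4-2B MDVR, against 9.44 FPKM. For later cholesterol synthesis and the isoprenoid branch they were 8 of 14 (57.1%, median 0.04) and 10 of 14 (median 0.18). In that list NUS1, which acts in dolichol synthesis, was at 23.3 and 19.995 FPKM with the siRNAs in H660, against 13.5 FPKM.

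Between the lines 20.1% of all genes tested were called higher in H660 and 17.9% lower, as given above. In fatty acid supply, elongation and activation 4 of 22 were called higher (18.2%) and 11 lower (50%). ELOVL4, an elongase of very long chains, was at 14.5, 16.3 and 11.8 FPKM in H660 with siRNA 1, siRNA 2 and control siRNA, against 0.0816, 0.0810 and 0.111 FPKM in C4-2B MDVR (3.79 ± 0.13). ACSL4, which activates polyunsaturated fatty acids, was at 9.54, 8.98 and 5.61 FPKM in H660, against 0.0542, 0.0192 and 0.0150 FPKM (3.11 ± 0.16), on the other side from ACSL3. In glycerolipid synthesis and droplets 4 of 12 were called higher (33.3%), with PLIN2, a droplet coat protein, at 9.26, 8.22 and 9.10 FPKM in H660, against 0.205, 0.0605 and 0.0759 FPKM in C4-2B MDVR, and 3 lower (25%). ELOVL4, ACSL4 and PLIN2 were under 1 FPKM in C4-2B MDVR and passed the filter on low values through H660 alone, so their direction was built into their passing. The same holds, in one direction or the other, for 3 of the 11 lower genes of fatty acid supply and for 3 of the 5 called genes of LXR receptors and sterol export. SREBP control had 3 of 11 lower (27.3%) and none higher, and later cholesterol synthesis and the isoprenoid branch had 1 of 14 higher (7.14%) and 4 lower (28.6%). Uptake, storage and traffic had 1 of 13 higher (7.69%) and 2 lower (15.4%), and LXR receptors and sterol export 1 of 6 higher (16.7%) and 4 lower (66.7%).

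A few of the values rest on shared sequence. FADS1 and FADS2 lie on opposite strands of chromosome 11 and share 490 bases of exon, 4.79% of the exon length of FADS1, and the labels do not say whether strand was used in counting. CYP51A1 shares 2844 bases (79.4% of its exon length) with AC000120.2 on the same strand, which was listed at 0 in all libraries. ACAT2 shares 397 bases (9.23% of its exon length) with TCP1 on the opposite strand, at 50.8 to 102 FPKM. On that strand it shares more with SOD2 (1141 bases, 26.5%), listed at 0 to 0.0971 FPKM. With SOD2-OT1, listed at 0 to 0.0578 FPKM, it shares 1458 bases (33.9%). HSD17B7 has a transcribed copy, HSD17B7P2, at 1.16 to 2.21 FPKM. For FADS1, FADS2, ACAT2 and HSD17B7 reads may have been split between the copies or added from the partner. For CYP51A1 no reads were assigned to the partner. Whether reads in shared exons were left out of the counts was not tested. If they were, the levels given for CYP51A1 would be too low.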

How the data were processed

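mRNA-seq libraries of 2 prostate cancer cell lines, 6 in all, were sequenced as paired reads of 150 bases, per the labels. The authors' deposited table gives FPKM per Ensembl gene; per the submitters' processing notes HISAT and Cufflinks were used (versions not given in the sources used here), and these notes name the build hg18. All 58735 gene IDs were in GENCODE 29 (GRCh38), from which names, exon lengths and positions were taken. FPKM times exon length gave whole fragments for 100% of the genes checked, those with up to 100 fragments (within 0.05 fragments). The intervals given were computed from those fragments and cover counting error only.

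The 15638 genes with a mean of at least 1 FPKM over the 3 libraries of at least 1 line were tested with limma 3.58.1 (R 4.3.3) on log2(FPKM + 1), with an intensity trend and Benjamini-Hochberg adjustment. Fold changes on that scale understate the change of low genes. Knockdown effects came from group means of all 6 libraries with 2 residual degrees of freedom, and the line difference and the common effect from an additive fit with 3. With 1 control per line, the control is assumed to vary like the knockdown pairs. Rules of size used FPKM ratios of genes with at least 1 FPKM on average in the line. The scripts were tested on simulated data.

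The alternatives were another pseudocount, other filters, quantile normalization, leaving out short RNAs and mitochondrial genes with rescaling, voom on the recovered fragments, siRNA number as a replicate block, leaving out each knockdown library, and other size rules. Genes were named by rule: the regulators, those past a test or the rule of size, those with the largest changes in each line, between the lines or between the siRNAs, and up to 3 of each neighbouring list, besides values for every gene of the set. Values of some genes of the neighbouring and marker lists are not reported here. INSIG2 in H660, SCAP, NPC2, KLK3, KRT8, KRT18 and the genes of the line comparison of neighbouring lists beyond that rule were chosen after their values were seen. The genes of the set and all lists were chosen with earlier results of these data known.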

Additional observations from a re-analysis of the deposited data

Results flagged for a closer look

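For 5 genes both knockdown libraries lay on one side of the control in C4-2B MDVR and both on the other side in H660. The differences of the effects, C4-2B MDVR minus H660 on the log2(FPKM + 1) scale, were -0.74 for ACSL3, -0.65 for EBP, -0.51 for ELOVL5 and -0.31 for MSMO1, which were below the control in C4-2B MDVR and above it in H660, and 0.66 for TM7SF2, which was above it in C4-2B MDVR and below it in H660. They stand here for the direction of their libraries alone. The share of all genes on opposite sides in this way is not given here. Of all genes, 25.6% were below and 33.8% above the control with both siRNAs in C4-2B MDVR. In H660 these shares were 39.2% and 33.9%. The limma test of the difference gave an adjusted p of 0.985 for each of the 5. For TM7SF2 and ACSL3 1 siRNA set the size: TM7SF2 was at 153% of the C4-2B MDVR control with siRNA 1 and 104% with siRNA 2, and ACSL3 at 93.6% and 42.6%. The direction of TM7SF2 turned with the scaling: its siRNA 2 library was at 95.02% of the C4-2B MDVR control after leaving out mitochondrial genes and short RNAs and at 97.0% by quantile normalization.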

How the results depend on the processing

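With 1 control per line and 2 residual degrees of freedom, a call needs a large and even change, and few fragments limit CYP51A1 and ELOVL6 in H660 further. No gene of the set was called with knockdown under any alternative tried; 15 to 20 were called lower between the lines and 2 higher.

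Genes called higher with knockdown in C4-2B MDVR numbered 33 with no filter on low values, 3 with a mean of at least 5 FPKM, 2 after rescaling without short RNAs and mitochondrial genes, and 11 by voom, against 0; genes called lower numbered 818 with no filter. In H660 those called higher numbered 47 with no filter and 1 each with a pseudocount of 0.1, a mean of at least 5 FPKM and quantile normalization, and those called lower 829 with no filter and 1 with at least 5 FPKM. For the difference of effects, no filter gave 688 higher and 684 lower. Without a filter, genes listed at 0 in every knockdown library of both lines have no spread of their own in the fit of group means. Whether such genes account for these calls was not tested. Between the lines, at least 5 FPKM left 1776 genes called higher, since fewer were tested.

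The median of the set in H660, -0.09, was -0.106 with a pseudocount of 0.1, -0.119 by quantile normalization, -0.11 after rescaling, and -0.0938 to -0.0700 without each knockdown library; the median of the difference was -0.215 to -0.0166 without each library. The line median, -1.13, was -1.45 with a pseudocount of 0.1, -0.91 after rescaling and -1.48 by voom. The siRNA numbers did not pair the libraries: the difference between siRNA 1 and siRNA 2 in C4-2B MDVR correlated with that in H660 at -0.00435 across 15638 genes. With siRNA number as a replicate block the H660 median was 0.0299, and no gene was called with knockdown. In that fit the effect is that of siRNA 1, with an offset for siRNA 2 shared by both lines. Its median is therefore not the same quantity as -0.09.

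By size, 1 gene was 2-fold below the C4-2B MDVR control with both siRNAs and 2 were 2-fold lower with siRNA 2 than siRNA 1. Above the C4-2B MDVR control with both siRNAs was 1 gene, HMGCS1, by quantile normalization and 1, again HMGCS1, after rescaling, since TM7SF2 with siRNA 2 lay on the other side. By quantile normalization 1 gene was 1.5-fold above the H660 control and 1 was 1.5-fold higher with siRNA 2 than siRNA 1 in H660. The shares of all genes past the 2-fold rules, or past the rules on other scales, are not given here. For single siRNAs, an alternative chosen after seeing the data, 4 to 8 genes were 1.5-fold below the C4-2B MDVR control, 0 to 1 above it, and 0 to 1 above the H660 control.

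Directions of small values turned round. After rescaling, IDI1 in C4-2B MDVR was -0.00787 and MVK -0.0110. Leaving out each knockdown library gave, in C4-2B MDVR, -0.0745 to 0.24 for IDI1, -0.11 to 0.28 for MVD, -0.0761 to 0.22 for MVK and -0.0441 to 0.36 for NSDHL. It gave -0.0703 to 0.12 for SREBF1 in H660, -0.0364 to 0.65 for the difference of LSS, -0.0172 to 0.11 for the common effect of MVK, and -0.19 to 0.12 for FDPS between the lines. By voom the common effect of STARD4 was -0.0533. MVD passed an adjusted p under 0.05 between the lines, at under 2-fold, after rescaling (0.68, limma adjusted p = 0.0115) and without siRNA 1 in C4-2B MDVR (0.56, 0.0324) or in H660 (0.59, 0.0401). The causes were not tested.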
